A study of Homo sapiens with 15 samples.

Results

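Knockdown of B4GALT5 in AsPC-1 cells was set against knockdown of B3GNT3 in Capan-1 cells, to see which genes moved alike and which moved oppositely when the target, the cell line and the libraries all differed. The samples were chosen by their labels alone and were 12 of the 15 RNA sequencing libraries of the series, in 4 groups of 3. AsPC-1 and Capan-1 are established human pancreatic ductal adenocarcinoma lines. AsPC-1 cells had been transfected with a control siRNA (siNC) or with an siRNA against B4GALT5 (siB4GALT5), and Capan-1 cells with siNC or with an siRNA against B3GNT3 (siB3GNT3). All 4 groups, controls included, were transfected. The study concerns MHC class I on tumour cells, the surface protein that shows peptides to CD8 T cells. Because target, siRNA and line change together, a difference between the responses cannot be told apart into a part of each. No label ties the 3 libraries of a group to separate cultures, so each p-value reflects only how these libraries vary, which may be technical. The source field of the Capan-1 samples spells the line Capable-1, while their titles read Capan-1.

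B4GALT5 is a Golgi galactosyltransferase that makes lactosylceramide, the root of most glycosphingolipids, and B3GNT3 is an N-acetylglucosaminyltransferase that extends O-glycans. In the integrated stress response, kinases that sense amino acid shortage, misfolded protein or double-stranded RNA slow translation, and the transcription factor ATF4 is made in spite of it and turns on genes for amino acid supply. In the interferon response, RNA sensors such as IFIH1 and DDX58 lead to secreted interferon, and a transcription factor complex that holds IRF9 then binds the interferon-stimulated response element (ISRE) in the promoters of antiviral genes.

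Promoter sequences of 5 genes whose groups are described below are shown because they carry the element by which each group is known. Each run is the 250 bases before the RefSeq start on the gene's own strand (GRCh38.p14), 5′ to 3′, with matches in capitals. Both strands were searched. For IFIT1 (chr10:89392373-89392622, plus strand) and IFI6 (chr1:27672193-27672442, minus strand), both antiviral genes, the capitals mark the ISRE core GAAANNGAA. For CHAC1 (chr15:40953221-40953470, plus strand), a glutathione-degrading enzyme of the ATF4 response, they mark the ATF4 element TGATGNAA. For CXCL2 (chr4:74099196-74099445, minus strand), a neutrophil chemokine, they mark the NF-kB core GGANNTTCC. For MCM6 (chr2:135876444-135876693, minus strand), a subunit of the replicative helicase, they mark the E2F motif TTTNGCGC, whose matches on the 2 strands overlap.
IFIT1: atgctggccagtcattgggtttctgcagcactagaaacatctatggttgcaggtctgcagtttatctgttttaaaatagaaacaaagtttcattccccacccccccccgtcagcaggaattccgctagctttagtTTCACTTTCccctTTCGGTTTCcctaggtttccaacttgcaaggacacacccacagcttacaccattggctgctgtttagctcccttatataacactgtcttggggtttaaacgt
IFI6: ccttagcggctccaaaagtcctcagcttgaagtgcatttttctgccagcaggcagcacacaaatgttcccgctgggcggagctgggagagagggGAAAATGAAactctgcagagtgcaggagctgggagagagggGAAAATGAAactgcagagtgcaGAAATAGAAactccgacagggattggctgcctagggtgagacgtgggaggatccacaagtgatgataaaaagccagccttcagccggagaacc
CHAC1: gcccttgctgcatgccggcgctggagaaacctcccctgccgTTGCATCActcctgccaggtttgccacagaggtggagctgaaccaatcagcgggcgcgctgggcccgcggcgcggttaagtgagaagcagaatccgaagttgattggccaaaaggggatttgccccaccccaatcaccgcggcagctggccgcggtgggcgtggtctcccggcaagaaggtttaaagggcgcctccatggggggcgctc
CXCL2: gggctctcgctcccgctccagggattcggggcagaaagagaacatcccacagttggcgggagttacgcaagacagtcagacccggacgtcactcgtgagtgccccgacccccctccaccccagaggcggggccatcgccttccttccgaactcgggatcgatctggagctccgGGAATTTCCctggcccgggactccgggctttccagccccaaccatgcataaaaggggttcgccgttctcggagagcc
MCM6: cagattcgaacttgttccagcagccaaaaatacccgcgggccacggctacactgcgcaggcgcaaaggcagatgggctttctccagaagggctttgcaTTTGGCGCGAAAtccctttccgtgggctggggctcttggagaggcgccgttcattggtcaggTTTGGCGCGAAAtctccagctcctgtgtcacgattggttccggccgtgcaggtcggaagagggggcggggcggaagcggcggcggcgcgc

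Expression was deposited as FPKM (fragments counted per length of transcript and per total of reads) for 25503 genes, and changes below are differences of log2(FPKM + 1), which understate those of low genes. Of these genes 9968 passed the filter in both lines, 633 in AsPC-1 only and 1525 in Capan-1 only, and 13377 in neither. The number of reads is unknown, but the value of 1 read, compared between libraries through the lowest values, lay within -0.04 to 0.08 (log2) of the first, so the libraries had nearly the same depth. Between 10339 and 11531 genes per library reached 1 FPKM. Of 8 ductal epithelial markers, all 8 averaged at least 5 FPKM in Capan-1 siNC but only 5 in AsPC-1 siNC. In AsPC-1 siNC the adhesion protein CDH1 averaged 0.210 ± 0.0382, KRT7 0.298 ± 0.150 and MUC1 1.31 ± 0.0696 FPKM (SD, n = 3). Of 5 fibroblast markers, LUM averaged 85.6 ± 6.14 FPKM in AsPC-1 siNC and the other 4 at most 0.423, while in Capan-1 siNC COL1A1 averaged 50.0 ± 3.44, LUM 9.64 ± 0.470 and the other 3 at most 0.119. The summed leukocyte markers reached at most 0.386 FPKM in any AsPC-1 and 7.10 in any Capan-1 library, and acinar and endothelial markers at most 0.0576 and 1.65. Replicate 3 stood apart in both knockdown groups. Its root mean square log2 differences from replicates 1 and 2 were 0.308 and 0.268 in Capan-1 siB3GNT3, where those 2 differed by 0.169, and 0.243 and 0.263 in AsPC-1 siB4GALT5, where they differed by 0.141. The siNC libraries differed by 0.124 to 0.134. Called values that moved by over 1.5 times, or calls that changed, without these libraries are given beside the genes named. BBC3, DUSP5, OTUD1 and XAF1 fell below the filter without 1 of them and were then not tested. They passed only with that knockdown library, so their rises, also within list counts, are not independent of the filter.

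Each target was low in its own knockdown. B4GALT5 was 38.7, 35.8 and 35.5 FPKM with siNC in AsPC-1 and 8.70, 8.49 and 8.03 with siB4GALT5 (log2 change -2.0, SE 0.06, limma adjusted p = 6.87e-07). In Capan-1 siB3GNT3 it was 63.5, 68.9 and 72.3 against 74.2, 76.4 and 76.0 FPKM, a change of -0.15 (adjusted p = 0.119), which was -0.19 without Capan-1 siB3GNT3 replicate 3 and then passed (adjusted p = 0.0173). B3GNT3 was 13.3, 13.2 and 13.7 FPKM in Capan-1 siNC and 1.32, 1.67 and 1.84 with siB3GNT3 (-2.47, SE 0.09, adjusted p = 9.65e-06). In AsPC-1 it was 22.5, 23.8 and 23.3 with siNC and 32.4, 30.8 and 27.9 with siB4GALT5, a rise of 0.37 (adjusted p = 0.00175). In the fit that adds the 3 AsPC-1 siB3GNT3 libraries the rise was also 0.37 but did not pass (adjusted p = 0.654). B3GNT3 was 2.53, 2.50 and 24.2 FPKM in those 3, the last against its label. That fit cannot decide on the rise, because its spread for this gene includes the gap between them. For both genes siB4GALT5 and siNC did not overlap in AsPC-1, nor did siB3GNT3 and siNC in Capan-1. B3GNT3 is therefore itself one of the genes called in opposite directions, and in Capan-1 its fall is the knockdown.

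More genes moved alike than oppositely. Of the 9968 genes tested, 5689 (57.1%) changed in AsPC-1, 3442 (34.5%) of them higher and 2247 (22.5%) lower, and 3284 (32.9%) changed in Capan-1, 1748 (17.5%) higher and 1536 (15.4%) lower. In both comparisons 1012 genes (10.2%) were higher, 534 (5.36%) were lower and 494 (4.96%) were called in opposite directions, 318 of them higher in AsPC-1 and 176 higher in Capan-1. The 3 knockdown libraries lay beyond the 3 controls in both lines for 996 of the 1012, 520 of the 534, 315 of the 318 and 173 of the 176. Calls and separation rest on the same libraries, so these counts add no separate support for the calls. Of the genes higher in AsPC-1, 29.4% were higher and 9.24% lower in Capan-1. Of those lower in AsPC-1, 23.8% were lower and 7.83% higher in Capan-1, against 15.4% and 17.5% of all genes. The changes were small in most: 37 genes rose and 0 fell at least 2-fold in both, and 4 moved at least 2-fold in opposite directions. The split of genes that moved alike depends on the scaling. It was 1012 higher and 534 lower with FPKM as deposited, 760 and 835 with median-ratio scaling, and 1260 and 378 with rescaling to a common sum, which move the median of all genes in AsPC-1 from 0.06 to -0.01 and 0.14. Without Capan-1 siB3GNT3 replicate 3 the counts rose to 1402 higher, 874 lower and 884 opposite, and 996 of the 1012 and all 534 of the 534 were among them. Without any 1 of the Capan-1 siNC libraries they fell to 570 to 590 higher, 290 to 301 lower and 252 to 270 opposite.

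**Figure D1:**
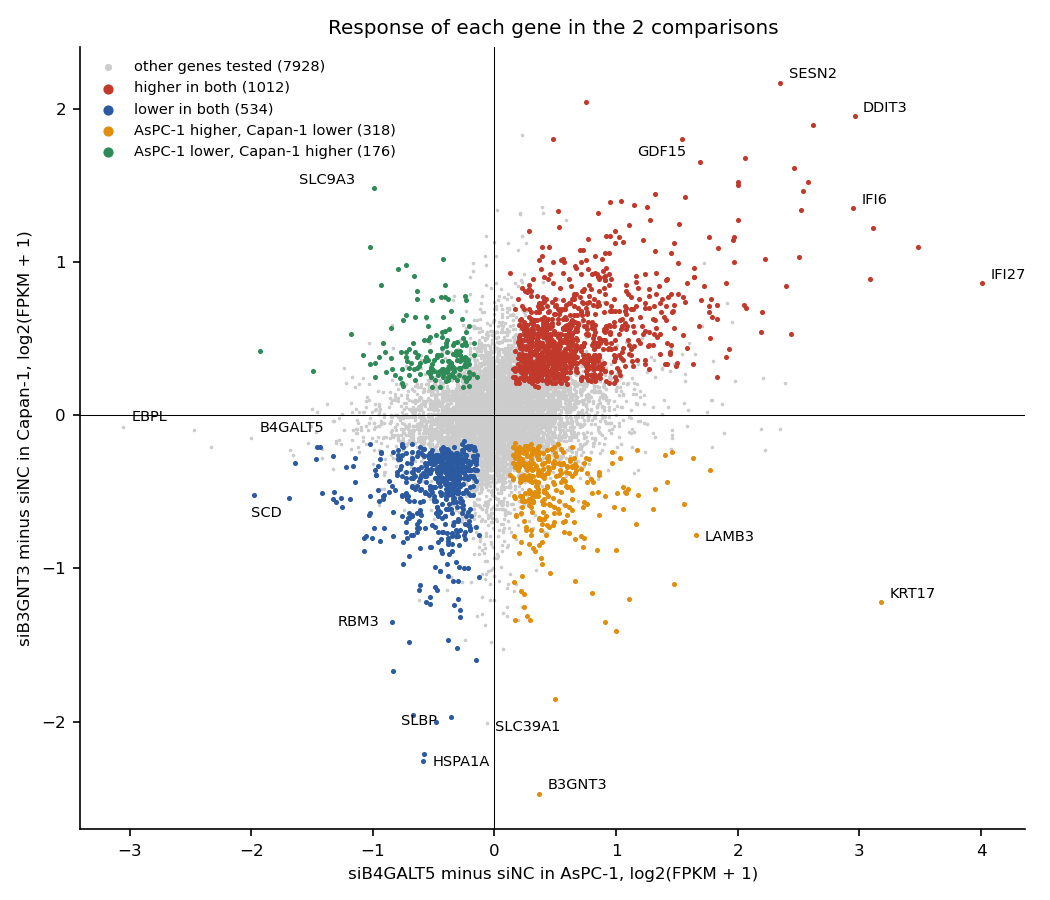
Change of each of the 9968 genes with siB4GALT5 in AsPC-1 (horizontal axis) and with siB3GNT3 in Capan-1 (vertical axis), both as differences of mean log2(FPKM + 1), coloured by whether the gene was called in both comparisons and in which directions. Of the named genes, SESN2 and DDIT3 lie far to the upper right and KRT17 far to the lower right.

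Large changes were set against calls in the other line. Over all genes tested, 34.5% were higher and 22.5% lower in AsPC-1, and 17.5% were higher and 15.4% lower in Capan-1. Of 298 genes called higher by at least 2-fold in AsPC-1, 168 (56.4%) were higher in Capan-1 and 22 (7.38%) lower. Of 82 genes called higher by at least 2-fold in Capan-1, 64 (78.0%) were higher in AsPC-1 and 3 (3.66%) lower. Of 95 genes lower in AsPC-1 by at least 2-fold, 26 (27.4%) were lower and 6 (6.32%) higher in Capan-1. Of 82 genes lower in Capan-1 by at least 2-fold, 30 (36.6%) were lower and 18 (22%) higher in AsPC-1. Across genes the 2 responses had a Pearson correlation of 0.35 and a Spearman correlation of 0.32, given as a description since genes are not independent. Without the 123 tested genes of the interferon and stress lists r was 0.30, and within them it was 0.59. Taken library by library against the siNC mean, r ran from 0.22 to 0.37 over the 9 pairs, lowest with Capan-1 siB3GNT3 replicate 3 (0.22 to 0.25). The root mean square change was 0.467 in AsPC-1 and 0.342 in Capan-1. A test of the difference itself called 3902 genes (39.1%), among them 278 (27.5%) of the genes higher in both and 131 (24.5%) of those lower in both, so many genes that moved the same way did so by different amounts.

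Most genes of the integrated stress response rose in both lines. Of 19 tested ATF4 and stress genes, 17 rose and 0 fell in AsPC-1, 14 rose and 1 fell in Capan-1, and 14 (73.7%) rose in both, against 10.2% of all genes. Without AsPC-1 siB4GALT5 replicate 3, 13 of 18 rose in both. The list medians were 1.07 and 1.20, against 0.06 and 0.01 over all genes. SESN2, a sensor of leucine that restrains mTORC1, was 8.04, 6.74 and 7.40 FPKM with siNC and 43.5, 44.2 and 38.1 with siB4GALT5 in AsPC-1. In Capan-1 it was 4.50, 5.15 and 4.35 with siNC and 42.5, 30.1 and 11.2 with siB3GNT3. All knockdown libraries lay above all controls, as the rule that named SESN2 required. In Capan-1 replicate 3 was the lowest of the knockdown libraries. SESN2 rose by 2.35 (SE 0.08, adjusted p = 1.15e-06) and 2.17 (SE 0.39, adjusted p = 0.00510), and the responses did not pass the test of their difference (0.18 as AsPC-1 minus Capan-1, the direction of every difference below, adjusted p = 0.775).

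DDIT3, the transcription factor CHOP that promotes cell death under lasting stress, went from 15, 15.6 and 17.8 to 132, 156 and 112 FPKM in AsPC-1. In Capan-1 it went from 17.2, 14.9 and 16.0 to 102, 79.9 and 32.7 FPKM. The rises were 2.96 and 1.95 (adjusted p = 1.61e-06 and 0.00508). TRIB3, a pseudokinase induced by ATF4 and CHOP, rose by 2.62 and 1.89, and ATF3, a repressor of the same family as ATF4, by 2.46 and 1.61. DDIT4, another brake on mTORC1, went from 51.4, 49.8 and 52.4 to 145, 160 and 148 FPKM in AsPC-1, and from 58.6, 52.1 and 48.7 to 310, 237 and 89.5 in Capan-1. Its rises were 1.54 and 1.80. The secreted stress cytokine GDF15 rose by 1.69 and 1.65 and the transcription factor CEBPB by 1.57 and 1.42. CEBPB went from 23.8, 26.1 and 27.6 to 80.7, 91.3 and 65.7 FPKM in AsPC-1 and from 33.0, 30.3 and 29.9 to 107, 101 and 55.9 in Capan-1. VEGFA, the angiogenic growth factor that ATF4 and hypoxia both induce, rose by 1.32 and 1.44. OTUD1, a deubiquitinase outside these lists, rose by 2.06 and 1.68, from means of 0.515 FPKM in AsPC-1 siNC and 11.4 FPKM in Capan-1 siNC. It passed the AsPC-1 filter only with siB4GALT5 replicate 3. GDF15 kept both directions. Its AsPC-1 call ended in the fit that adds the 3 AsPC-1 siB3GNT3 libraries, 1 of which goes against its label (adjusted p = 0.0646). Its Capan-1 call ended with no filter on low values (adjusted p = 0.0504).

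Some members of the stress list differed between the lines. These were chosen after their values were seen. PPP1R15A, the phosphatase subunit that ends the response, rose by 3.11 in AsPC-1, from 14.4, 14.3 and 14.1 to 137, 156 and 105 FPKM, and by 1.22 in Capan-1, from 21.1, 17.4 and 18.8 to 74.2, 46.9 and 27.5 (difference 1.89, adjusted p = 0.00117). Its Capan-1 call ended without any 1 of 3 libraries (adjusted p up to 0.0602, without siNC replicate 2). ATF4 itself rose by 1.07 and 0.32 (difference 0.75, adjusted p = 3.86e-05). CHAC1, whose promoter is shown above, had the larger rise in Capan-1. It went from 1.36, 1.71 and 1.47 to 3.28, 3.95 and 2.54 FPKM in AsPC-1 and from 1.45, 1.26 and 0.964 to 13.1, 10.6 and 3.59 in Capan-1, rises of 0.75 and 2.04 (difference -1.29, adjusted p = 0.0290).

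Most genes that supply amino acids rose in both, and those that charge tRNAs did so in part. Of 16 tested genes of serine and asparagine synthesis and amino acid transport, 13 rose and 1 fell in AsPC-1, 13 rose and 0 fell in Capan-1, and 11 (68.8%) rose in both, with medians of 0.62 and 0.76. SLC3A2, the heavy chain of the leucine and cystine transporters, went from 177, 178 and 183 to 343, 368 and 303 FPKM in AsPC-1 and from 101, 99.4 and 96.7 to 255, 201 and 128 in Capan-1. Both rises were 0.91 (adjusted p = 2.24e-05 and 0.0125). The glutamine transporter SLC1A5 rose by 0.90 and 0.83 and the alanine aminotransferase GPT2 by 0.83 and 0.93. PSAT1, the serine synthesis enzyme, rose in Capan-1, from 23.1, 21.8 and 22 to 65.9, 53.7 and 34.4 FPKM (1.12, adjusted p = 0.00471), and was 54.9, 54.9 and 49.8 against 49.4, 49.1 and 48.9 in AsPC-1 (0.11, adjusted p = 0.119; difference -1.01, adjusted p = 0.00372). Its AsPC-1 change passed without siB4GALT5 replicate 3 (0.16, adjusted p = 0.00810) and with rescaling to a common sum (0.20, adjusted p = 0.0103). Of 20 aminoacyl-tRNA synthetases 7 (35.0%) rose in both, and FARSB, 1 subunit of the phenylalanine enzyme, was called in opposite directions (0.18 and -0.22). AARS1 rose by 0.73 and 0.81. WARS1, the tryptophan enzyme that interferon also induces, rose by 1.41 and 0.71 (difference 0.71, adjusted p = 0.00162). Both FARSB calls ended without any 1 of 5 libraries (adjusted p up to 0.0856 in AsPC-1 and 0.115 in Capan-1).

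The stress genes were graded among the Capan-1 knockdown libraries and the interferon genes were not. Against the siNC mean, the median of the ATF4 list was 1.64, 1.23 and 0.72 in replicates 1, 2 and 3 of Capan-1 siB3GNT3, and that of the amino acid list 1.16, 0.84 and 0.34. For the interferon-stimulated genes it was 0.79, 0.82 and 0.78. B3GNT3 itself was 1.32, 1.67 and 1.84 FPKM in the same 3 libraries. In AsPC-1 siB4GALT5 the ATF4 list stood at 1.04, 1.20 and 1.06 and the interferon list at 1.18, 1.64 and 1.49. Without Capan-1 siB3GNT3 replicate 3 the rises of SESN2, DDIT3 and DDIT4 in Capan-1 were 2.70, 2.43 and 2.33, the ATF4 list had a Capan-1 median of 1.51 with 15 of 18 genes higher in both, and the amino acid list had 13 of 16. The part of that library in these results was not tested further.

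**Figure D2:**
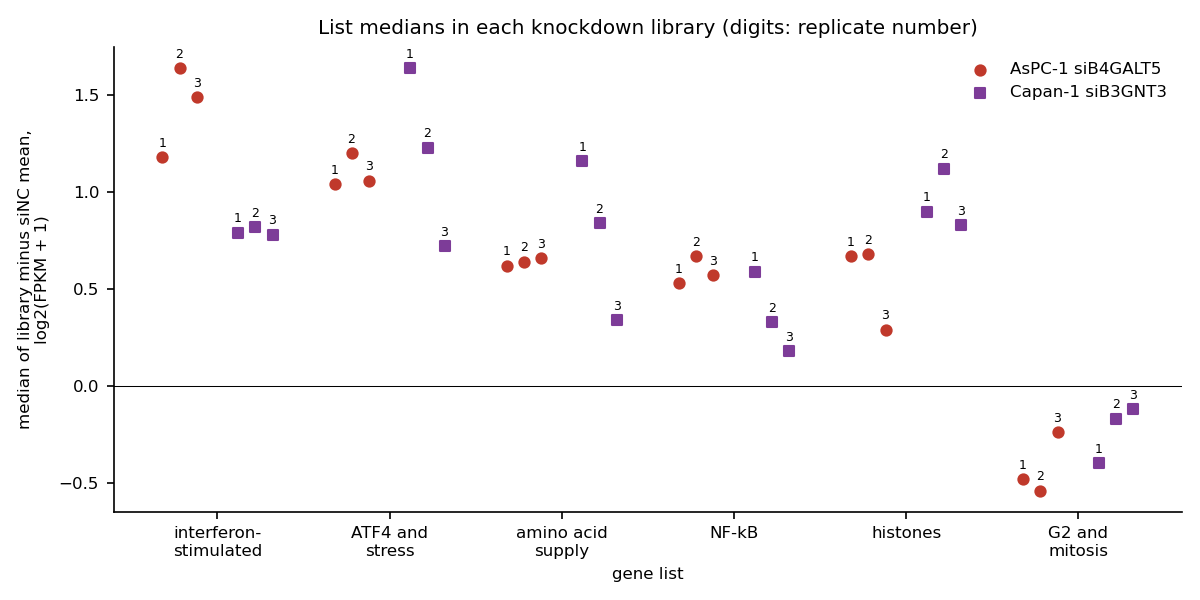
Median over the tested genes of 6 lists in each knockdown library, as log2(FPKM + 1) minus the mean of the line's siNC libraries. Circles are AsPC-1 siB4GALT5, squares are Capan-1 siB3GNT3, and digits give the replicate. In Capan-1 the ATF4 list runs from 0.72 in replicate 3 to 1.64 in replicate 1, while the interferon list lies between 0.78 and 0.82.

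Most interferon-stimulated genes rose in both lines. Of 49 tested, 46 rose and 0 fell in AsPC-1, 44 rose and 0 fell in Capan-1, and 42 (85.7%) rose in both. The medians were 1.44 and 0.83, and 33 (67.3%) passed the test of the difference between the responses, against 39.1% of all genes. XAF1, 1 of the 49, passed the AsPC-1 filter only with siB4GALT5 replicate 3, and without that library 41 of 48 rose in both. IFIT1, which binds uncapped viral RNA, went from 8.39, 7.70 and 7.86 to 48.3, 60.1 and 45.8 FPKM in AsPC-1 and from 18.3, 21.7 and 27.1 to 53.9, 63.3 and 71.8 in Capan-1. Knockdown and control libraries did not overlap in either line, as the rule that named IFIT1 required. Its rises of 2.54 and 1.46 differed (1.07, adjusted p = 0.000918). IFI6, a mitochondrial and ER antiviral protein, went from 24.5, 18 and 21.8 to 134, 225 and 167 FPKM in AsPC-1 and from 77.6, 77.3 and 90.1 to 194, 205 and 230 in Capan-1 (2.95 and 1.35, difference 1.60, adjusted p = 0.000126). Both genes had lower levels in AsPC-1 siNC than in Capan-1 siNC.

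OAS2, a synthetase of the 2-5A messenger that activates RNase L, rose by 2.58 and 1.52 (difference 1.06, adjusted p = 0.00246) and IFIT3 by 2.52 and 1.34. IFITM1, a membrane protein that blocks virus entry, was far apart in level between the lines. It was 3.38, 2.07 and 2.79 with siNC and 6.78, 20.5 and 18.4 FPKM with siB4GALT5 in AsPC-1, and 164, 160 and 174 with siNC and 465, 450 and 500 with siB3GNT3 in Capan-1. Its rises of 2.00 and 1.50 did not pass the test of their difference (0.50, adjusted p = 0.337). IRF7, the factor that amplifies interferon production, rose by 2.00 and 1.27. A few members, chosen after their values were seen, set the range. RSAD2, the antiviral enzyme viperin, rose by 3.48 and 1.10 and IFI27 by 4.01 and 0.86, the latter from 1.12, 0.618 and 0.811 FPKM in AsPC-1 siNC but from 501, 483 and 541 in Capan-1 siNC. IRF1, which interferon gamma and NF-kB induce, had the larger rise in Capan-1, by 0.52 and 1.33 (difference -0.81, adjusted p = 0.0167). So did SOCS3, a feedback inhibitor of cytokine receptors, from 2.14, 2.14 and 2.62 to 3.28, 4.10 and 3.43 FPKM in AsPC-1 and from 10.7, 10.1 and 10.2 to 34.8, 46.8 and 34.5 in Capan-1 (0.48 and 1.80, difference -1.32, adjusted p = 4.56e-05).

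Some sensors upstream of interferon rose as well. IFIH1 (MDA5), which detects long double-stranded RNA, went from 7.05, 7.69 and 7.32 to 43.3, 44.9 and 40.9 FPKM in AsPC-1 and from 6.67, 6.80 and 8.90 to 13.8, 13.6 and 14.7 in Capan-1 (2.40 and 0.84, difference 1.56, adjusted p = 2.94e-06). DDX58 (RIG-I), the sensor of RNA with 5′ triphosphate ends, rose by 1.45 and 1.06, and the regulator DHX58 by 2.20 and 0.67. ADAR, which edits double-stranded RNA, rose by 0.66 and 0.55. Of the 19 tested genes of this list 6 (31.6%) rose in both, and the receptor kinase JAK1 was called in opposite directions (-0.21 and 0.19), a call that ended without any 1 of 4 libraries in AsPC-1 (adjusted p up to 0.136) and of 5 in Capan-1 (up to 0.133). Several genes of these lists did not pass the filter in both lines and were not tested. They were named after their values were seen. The type III interferon IFNL1 averaged 0.152 ± 0.114 and 7.69 ± 2.43 FPKM in AsPC-1 siNC and siB4GALT5, and 0.109 ± 0.101 and 0.254 ± 0.117 in Capan-1 siNC and siB3GNT3 (SD, n = 3). The antiviral GTPase MX1 averaged 0.0956 ± 0.0299 and 0.613 ± 0.216 FPKM in AsPC-1, and 35.6 ± 8.26 and 108 ± 18.2 in Capan-1. CCL5, an interferon-responsive T cell chemokine, and OASL, an OAS relative, moved in AsPC-1 only. CCL5 was 2.52, 2.09 and 2.27 with siNC and 17.3, 15.2 and 14.9 FPKM with siB4GALT5, against 6.77, 4.64 and 5.93 and 6.48, 4.99 and 4.63 in Capan-1 (2.35 and -0.09, difference 2.44, adjusted p = 1.10e-06). OASL had changes of 2.19 and -0.09 (difference 2.28, adjusted p = 1.20e-06).

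**Figure D3:**
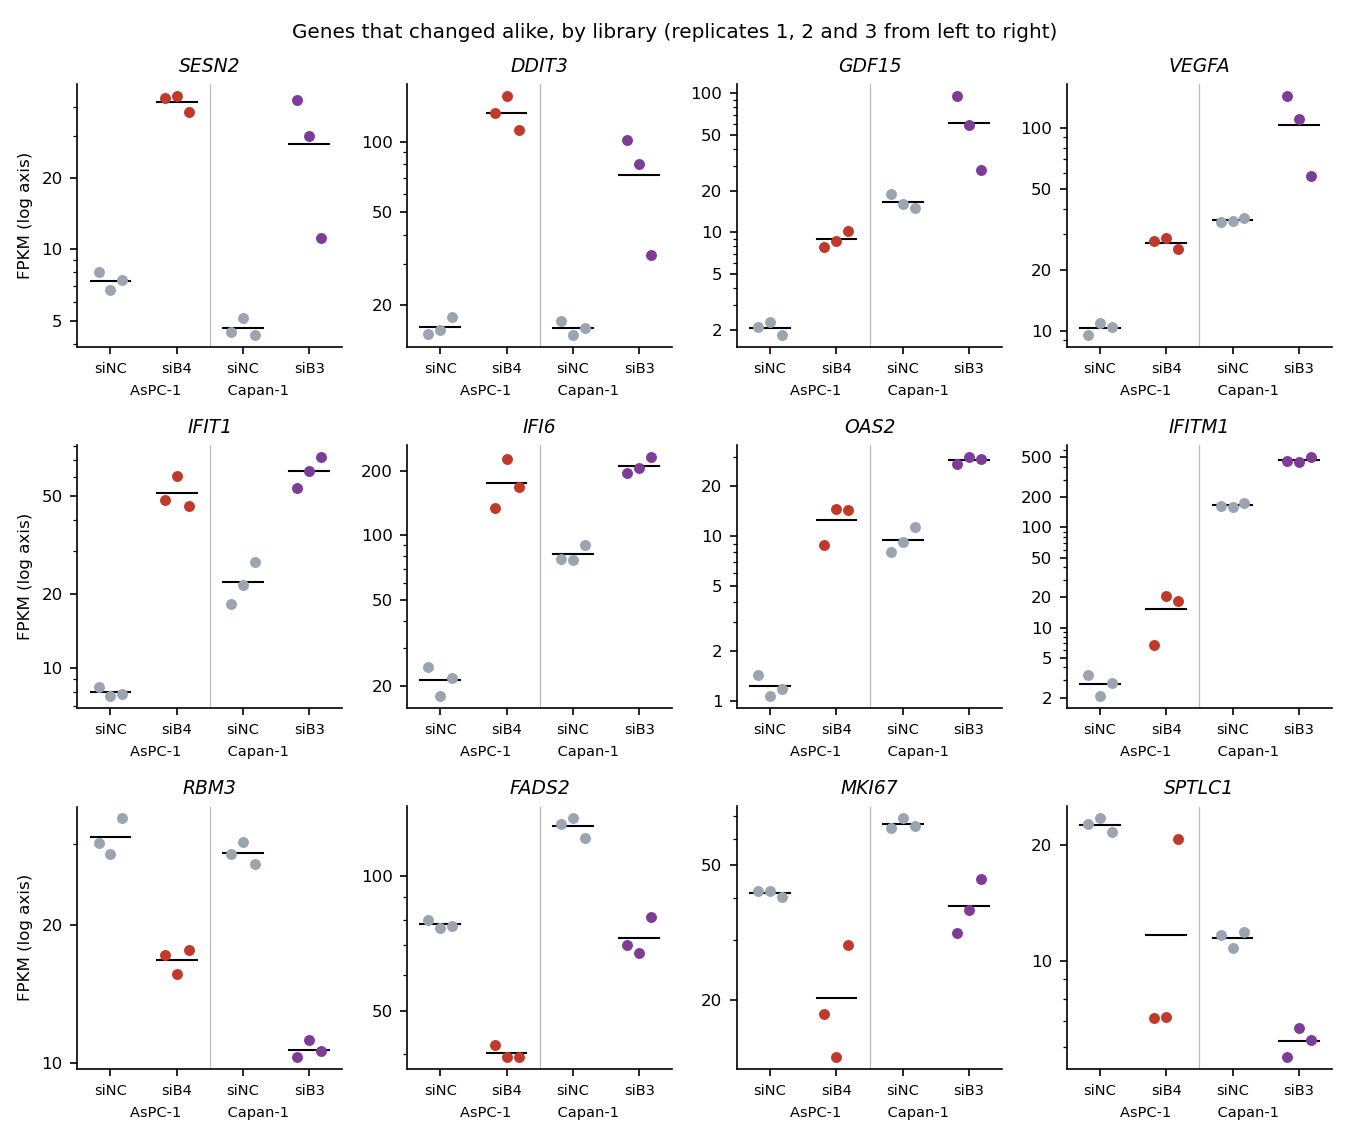
FPKM of 12 genes called in the same direction in both comparisons, on log axes, with 1 point per library and a bar at the group mean (siB4, siB4GALT5 and siB3, siB3GNT3). In every panel the 3 knockdown libraries lie on the same side of the 3 siNC libraries in AsPC-1 (left pair) and Capan-1 (right pair). The rule that chose these genes required this. SPTLC1 at 20.8 FPKM in AsPC-1 siB4GALT5 replicate 3 lies close to its controls.

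MHC class I and its peptide supply rose in part. Of 6 tested MHC class I chains 4 rose and 1 fell in AsPC-1, 3 rose and 0 fell in Capan-1, and 2 (33.3%), HLA-B and the shared light chain B2M, rose in both. HLA-B was 57.7, 57.7 and 67.0 with siNC and 87.5, 107 and 77.5 FPKM with siB4GALT5 in AsPC-1, and 89.2, 79.3 and 82.3 against 110, 115 and 124 in Capan-1. Its rises were 0.56 and 0.48 (adjusted p = 0.00347 and 0.00243). B2M went from 244, 245 and 264 to 302, 364 and 296 FPKM in AsPC-1 and from 431, 411 and 423 to 506, 551 and 501 in Capan-1 (0.35 and 0.30, adjusted p = 0.00651 and 0.00759). HLA-E rose in AsPC-1 by 0.51 and had a change of 0.08 in Capan-1 (adjusted p = 0.313; difference 0.44, adjusted p = 0.00120). The HLA genes are near-identical over long stretches, and reads may have been divided wrongly between them. TAP1, which pumps peptides into the ER, rose by 0.88 and 1.02. It went from 20.2, 17.5 and 19.7 to 32.2, 38.0 and 37.9 FPKM in AsPC-1 and from 31.5, 32.4 and 35.7 to 66.5, 67.3 and 70.8 in Capan-1. The immunoproteasome subunit PSMB8 rose by 0.52 and 0.60. NLRC5, the transactivator of class I genes, rose by 0.40 and 0.77 and was chosen after its values were seen; its AsPC-1 call ended without siNC replicate 2 (adjusted p = 0.0514) or 1 other library. Of 15 tested processing genes 6 (40.0%) rose in both, and CALR, the lectin chaperone that holds class I heavy chains, fell in both by 0.47 and 0.42.

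NF-kB targets and chemokines rose in part. Of 20 tested NF-kB genes 17 rose in AsPC-1 and 10 in Capan-1, 0 fell in either, and 7 (35.0%) rose in both, with medians of 0.56 and 0.41. NFKBIZ, an inducible co-activator, rose by 0.94 and 0.85, and the mitochondrial superoxide dismutase SOD2 by 0.56 and 1.02. CXCL2 went from 15.1, 15.2 and 16.5 to 27.3, 34.8 and 25.3 FPKM in AsPC-1 and from 60.5, 55.7 and 54.3 to 150, 163 and 119 in Capan-1 (0.85 and 1.32, difference -0.47, adjusted p = 0.0454). CXCL8, interleukin 8, rose by 1.72 and 0.84 and CXCL3 by 0.65 in each. IL6, not tested and chosen after its values were seen, averaged 19.7 ± 0.903 and 64.1 ± 20.7 FPKM in Capan-1 siNC and siB3GNT3 (SD, n = 3) but at most 0.101 FPKM in any AsPC-1 library. Of 35 tested lysosome and autophagy genes 9 (25.7%) rose in both, and 5 did with median-ratio scaling. Without Capan-1 siB3GNT3 replicate 3, 9 of 19 NF-kB genes were higher in both, and with median-ratio scaling 4 of 20. Among p53 and apoptosis genes 8 of 29 (27.6%) rose in both, including PMAIP1 (2.07 and 0.70) and BBC3 (1.22 and 1.14), which encode NOXA and PUMA. BBC3 passed the filter in each line only with knockdown replicate 3, so its rises are not independent of the filter. Of the EGFR and MAPK list 8 of 25 (32.0%) rose in both, with the phosphatases DUSP1 at 1.76 and 0.67 and DUSP5 at 0.77 and 0.95, a count that was 16 of 25 without Capan-1 siB3GNT3 replicate 3. DUSP5 passed the AsPC-1 filter only with siB4GALT5 replicate 3, and without that library the count was 6 of 23.

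Histone mRNAs rose in part while a factor that processes them fell. Of 11 tested genes of the histone list 6 (54.5%) rose in both, with medians of 0.46 and 1.08. The count was 10 without AsPC-1 siB4GALT5 replicate 3. H4C8 went from 1.36, 2.00 and 2.04 to 5.09, 5.72 and 4.77 FPKM in AsPC-1 and from 9.82, 9.30 and 10.3 to 28.8, 25.8 and 26.5 in Capan-1 (1.15 and 1.37). H2BC5 rose by 1.11 and 1.24, H2BC8 by 0.92 and 1.17 and H1-2 by 1.16 and 0.71. SLBP, the protein that binds the stem-loop of replication-dependent histone mRNA, was the member that fell. It was chosen after its values were seen. It was 39.3, 37.7 and 41.9 with siNC and 29.9, 29.9 and 32.1 FPKM with siB4GALT5 in AsPC-1, and 44.4, 42.4 and 44.7 against 8.61, 9.13 and 14.5 in Capan-1. The falls were -0.36 and -1.97 (adjusted p = 0.00123 and 0.000213; difference 1.61, adjusted p = 4.06e-05). Histone genes share reads with near-identical copies, so single values are uncertain.

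The motifs of the opening were commoner in the promoter windows of their own lists. Windows ran from 250 bases before to 50 after a RefSeq start, and 8178 of the tested genes had 11792 of them. The ISRE core was in 64.0% of 50 windows of interferon-stimulated genes and 42.9% of 21 windows of antigen processing genes, against 6.59% of windows of all tested genes. It was in 13.6% of 22 windows of RNA sensing and interferon signalling genes. Other lists had it too, with 41.7% of 12 histone list and 21.6% of 37 ribosomal protein windows. The ATF4 element was in 33.3% of 21 synthetase, 25.0% of 16 amino acid supply and 14.8% of 27 stress list windows, against 1.93%. The NF-kB core was in 30.0% of 30 windows of NF-kB genes and 71.4% of 7 of chemokines, against 4.78%. Over all genes higher in both the shares lay nearer the background, at 9.55% of 1267 windows for the ISRE core, 2.76% for the ATF4 element and 5.05% for the NF-kB core. A match describes the letters of the window and was not tested as a binding site.

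Cell cycle genes fell in part. Of 34 tested G2 and mitosis genes 25 fell in AsPC-1 and 13 in Capan-1, 0 rose in either, and 12 (35.3%) fell in both, against 5.36% of all genes. Of 34 tested DNA replication genes 24 fell and 0 rose in AsPC-1, 14 fell and 2 rose in Capan-1, and 11 (32.4%) fell in both. The medians were -0.44 and -0.21 for mitosis and -0.30 and -0.24 for replication. In bulk samples fewer cycling cells and less mRNA per cell cannot be told apart. MKI67, the proliferation marker, went from 42.0, 41.9 and 40.2 to 18.1, 13.5 and 29.1 FPKM in AsPC-1 and from 64.5, 68.9 and 65.5 to 31.6, 36.9 and 45.6 in Capan-1. Replicate 3 was the closest to its controls in both knockdowns. The changes were -1.07 and -0.80 (adjusted p = 0.00362 and 0.00230), and without replicate 3 they were -1.35 and -0.94. ANLN, a scaffold of the contractile ring, went from 98.6, 95.5 and 96.1 to 53.3, 46.2 and 54.4 FPKM in AsPC-1 and from 49.7, 51.4 and 53 to 27.5, 32.3 and 31.7 in Capan-1 (-0.91 and -0.74). AURKA, a spindle kinase, fell by 0.60 and 0.65, CCNB1, the mitotic cyclin, by 0.68 and 0.46, and INCENP, the scaffold of the chromosomal passenger complex, by 0.70 and 0.92. Of the replication genes, MCM6 fell by 1.02 and 0.64, the thymidylate synthase TYMS by 0.70 and 0.64, the flap nuclease FEN1 by 0.43 and 0.76 and the G1 cyclin CCNE1 by 0.47 and 1.14. The E2F motif was in 32.5% of 40 replication windows, against 2.79% of those of all tested genes. Without Capan-1 siB3GNT3 replicate 3, 19 of 34 mitosis and 16 of 34 replication genes were lower in both.

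Fatty acid genes had medians of -0.49 in AsPC-1 and -0.12 in Capan-1. Of 17 tested fatty acid genes 15 fell and 2 rose in AsPC-1, 6 fell and 2 rose in Capan-1, and 5 (29.4%) fell in both. FADS2, the desaturase that starts the making of long unsaturated fatty acids, went from 79.9, 76.7 and 77.6 to 41.8, 39.3 and 39.3 FPKM in AsPC-1 and from 131, 135 and 122 to 70.1, 67.5 and 81.3 in Capan-1. Its falls of -0.94 and -0.82 did not pass the test of their difference (adjusted p = 0.364). SCD, which makes oleate, went from 134, 131 and 133 to 41.1, 38.0 and 42.3 FPKM in AsPC-1 and from 220, 224 and 210 to 134, 150 and 168 in Capan-1, and its falls of -1.69 and -0.54 differed (-1.15, adjusted p = 5.62e-06). ELOVL6, which elongates palmitate, fell in AsPC-1 (-1.53) and was -0.18 in Capan-1 (adjusted p = 0.326; difference -1.36, adjusted p = 4.77e-05). Without Capan-1 siB3GNT3 replicate 3 its Capan-1 change was -0.33 and passed (adjusted p = 0.00457). ACSL4 and ACSL1, which activate long-chain fatty acids, went in opposite directions. ACSL4 went from 14.7, 13.7 and 13.6 to 9.87, 9.07 and 5.45 FPKM in AsPC-1 and from 43.4, 42.4 and 41.0 to 74.6, 66.2 and 57.4 in Capan-1 (-0.75 and 0.62), and ACSL1 changed by -0.44 and 0.77. ELOVL1, the elongase of very long saturated chains, moved the other way (0.30 and -0.40). ACSL1 and ELOVL1 were chosen after their values were seen.

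Cholesterol synthesis genes had medians of -0.54 in AsPC-1 and -0.16 in Capan-1. Of 24 tested genes 17 fell in AsPC-1 and 5 in Capan-1, 1 rose in each, and 4 (16.7%) fell in both, a count of 10 without Capan-1 siB3GNT3 replicate 3. MSMO1, which removes methyl groups from sterols, went from 30.3, 25.7 and 27.3 to 13.4, 12.7 and 15.4 FPKM in AsPC-1 and from 45.8, 43.5 and 48.2 to 30.5, 31.5 and 35.0 in Capan-1 (-0.96 and -0.49, difference -0.46, adjusted p = 0.00847). The CCAAT box CCAAT was in 78.3% of 23 windows of cholesterol genes, against 35.6% of those of all tested genes. That share was not particular to them, with 84.6% of ER chaperone, 83.3% of histone list and 72.7% of mitosis windows. The sterol element TCACCCCAC was in 1 of the 23 windows (4.35%), against 0.382%.

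Heat shock and ER chaperones moved in part alike. Of 15 tested heat shock genes 8 fell and 2 rose in AsPC-1, 6 fell and 1 rose in Capan-1, and 4 (26.7%) fell in both. The count was 7 with median-ratio scaling and 6 without Capan-1 siB3GNT3 replicate 3. HSPA1A, the inducible HSP70, was 39.6, 39.5 and 36.4 with siNC and 27.0, 27.3 and 22.3 FPKM with siB4GALT5 in AsPC-1. In Capan-1 it was 49.4, 48.4 and 48.0 with siNC and 6.09, 6.46 and 22.3 with siB3GNT3, so that replicate 3 lay between the other knockdown libraries and the controls. The falls of -0.58 and -2.21 differed (1.63, adjusted p = 0.0124), and the Capan-1 value was -2.77 without replicate 3. The AsPC-1 fall of HSPA1A did not pass in the 1 fit of 12 libraries (adjusted p = 0.142), from which the difference comes. HSPA1B, a gene of the same family, changed by -0.53 and -1.19. Its Capan-1 call ended without any 1 of 5 libraries (adjusted p up to 0.138). How reads were divided between HSPA1A and HSPA1B was not examined, so their single values are uncertain. HSP90AB1, the constitutive HSP90, fell by 0.37 and 0.32, a Capan-1 call that ended without any 1 of 3 libraries (adjusted p up to 0.0582). Of 22 tested ER chaperone and XBP1 genes 9 rose and 4 fell in AsPC-1 while 1 rose and 11 fell in Capan-1. Over all genes 34.5% rose and 22.5% fell in AsPC-1, and 17.5% rose and 15.4% fell in Capan-1. The test of the difference passed for 14 (63.6%), against 39.1% of all genes. The list medians were 0.12 and -0.25, against 0.06 and 0.01 over all genes. With median-ratio scaling the list medians were 0.04 and -0.30. DNAJC3, the co-chaperone p58IPK, and HYOU1, an ER HSP70 relative chosen after its values were seen, were called in opposite directions (0.24 and -0.69, and 0.43 and -0.23). The AsPC-1 call of DNAJC3 ended without any 1 of 3 libraries (adjusted p up to 0.0805), and so did the Capan-1 call of HYOU1 (up to 0.0695).

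Beyond these lists, single genes fell alike. RBM3, an RNA-binding protein of the cold response, fell in both lines. It went from 30.2, 28.5 and 34.1 to 17.2, 15.6 and 17.6 FPKM in AsPC-1 and from 28.6, 30.3 and 27.2 to 10.3, 11.2 and 10.6 in Capan-1 (-0.84 and -1.35, difference 0.50, adjusted p = 0.00290). VTI1B, a SNARE of late endosomes, fell by 0.75 and 0.83, the ER calcium-binding protein RCN2 by 1.01 and 0.80, the imprinted growth regulator PHLDA2 by 0.99 and 0.74 and the chromatin protein NUCKS1 by 0.73 and 0.70. VTI1B went from 19.1, 18.7 and 18.6 to 10.2, 10.2 and 11.9 FPKM in AsPC-1 and from 28.0, 29.5 and 29.1 to 15.2, 15.4 and 16.8 in Capan-1. ALDH3A1, an aldehyde dehydrogenase, fell by 0.83 and 1.67, and its AsPC-1 call ended without siNC replicate 2 (adjusted p = 0.0627) or 1 other library. Without AsPC-1 siB4GALT5 replicate 3 the AsPC-1 change of ALDH3A1 was -0.50. SPTLC1, a subunit of the first enzyme of ceramide synthesis, was 22.7, 23.5 and 21.7 with siNC and 7.14, 7.18 and 20.8 FPKM with siB4GALT5 in AsPC-1, and 11.7, 10.8 and 11.9 against 5.64, 6.70 and 6.25 in Capan-1. Its changes were -1.06 and -0.79, the AsPC-1 value was -1.53 without replicate 3, and that call ended without any 1 of 5 other libraries (adjusted p up to 0.0834). S100A4, a calcium-binding protein tied to cell motility, was 1648, 1770 and 1703 with siNC and 1119, 1179 and 899 FPKM with siB4GALT5 in AsPC-1, and 55.0, 62.1 and 67.7 against 33.6, 43.1 and 30.3 in Capan-1 (-0.69 and -0.78).

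Glycolysis, tubulin and mitochondrial genes were counted in the same way. Of 26 tested hypoxia and glycolysis genes 6 (23.1%) fell in both and 2 rose, VEGFA and NDRG1, the latter with a Capan-1 call that ended without any 1 of 4 libraries (adjusted p up to 0.0865). LDHA, which makes lactate, fell by 0.70 and 0.56 and PGK1, a glycolytic kinase, by 0.41 and 0.66. Without Capan-1 siB3GNT3 replicate 3 the counts lower in both were 12 for hypoxia and glycolysis and 6 for tubulins. Of 12 tubulins 3 (25.0%) fell in both, TUBA4A by 0.61 and 0.87, TUBB4B by 0.68 and 0.66 and TUBA1B by 0.35 and 0.37, while TUBA1C was called in opposite directions (0.33 and -0.43). The Capan-1 calls of TUBB4B, TUBA1B and TUBA1C each ended without any 1 of 5 libraries (adjusted p up to 0.10, 0.111 and 0.107). Of 13 mitochondrially encoded mRNAs 12 fell in AsPC-1 and 2 (15.4%) in Capan-1, where 15.4% of all genes fell, with medians of -0.51 and -0.09, and 9 (69.2%) passed the test of the difference. COX3, a subunit of cytochrome c oxidase, fell by 0.61 and 0.41. Cytokeratins were split. KRT8 fell by 0.52 and 0.35 and KRT19 by 0.47 and 0.60, the Capan-1 call of KRT8 ending without any 1 of 2 libraries (adjusted p up to 0.0669), while KRT18 rose in AsPC-1 and fell in Capan-1 (0.52 and -0.61).

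**Figure D4:**
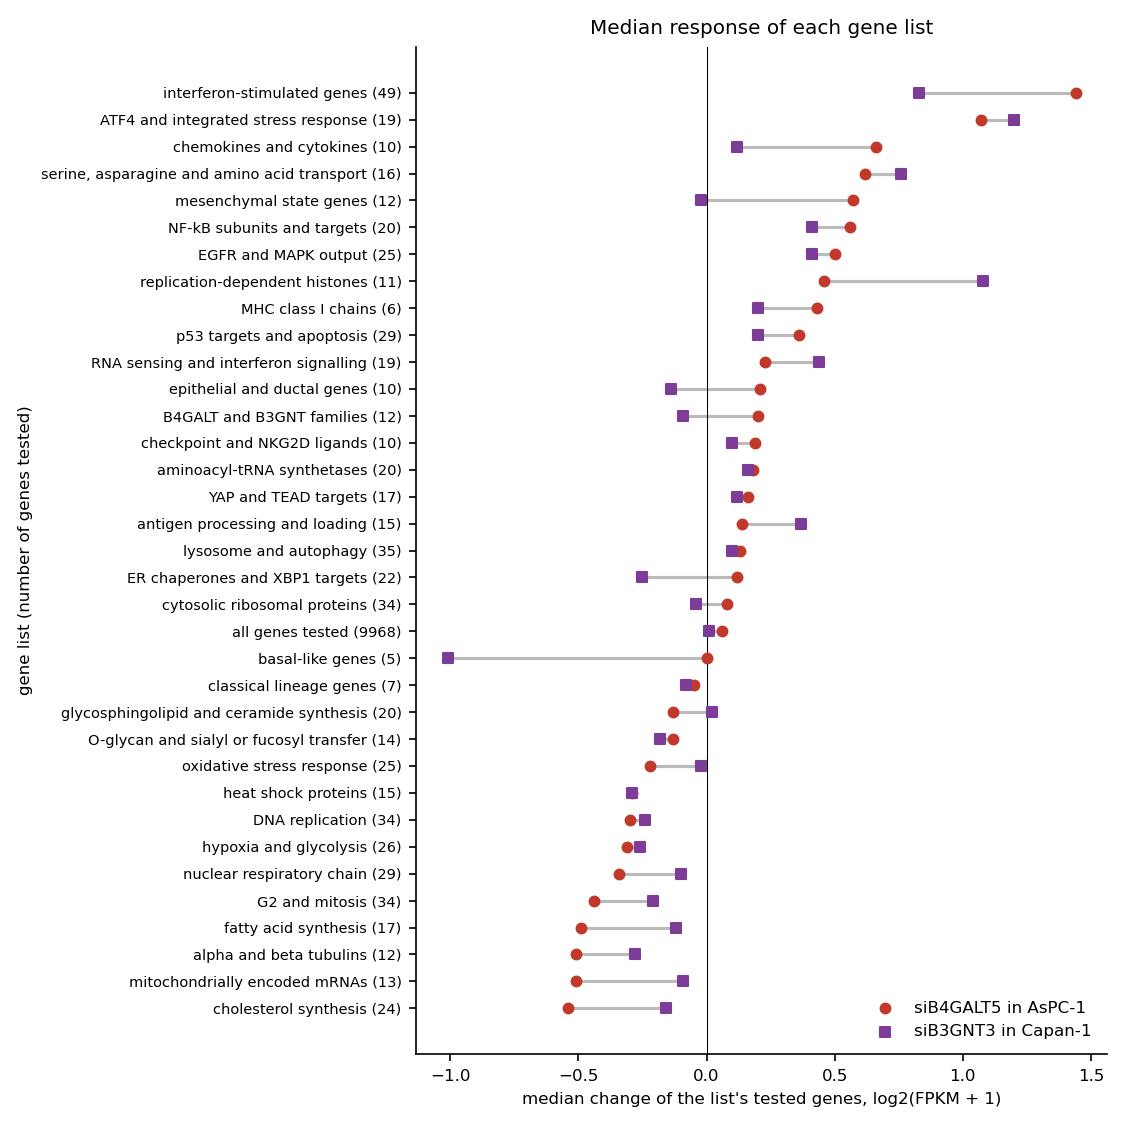
Median change of the tested genes of each list with at least 5 of them, for siB4GALT5 in AsPC-1 (circles) and siB3GNT3 in Capan-1 (squares), in log2(FPKM + 1). The interferon and ATF4 lists lie at the top, with medians of 1.44 and 0.83 and of 1.07 and 1.20. The ER chaperones (0.12 and -0.25) lie on opposite sides of 0, as do some other lists, such as the epithelial and ductal genes (0.21 and -0.14).

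The largest changes higher in AsPC-1 and lower in Capan-1 were named by rule. That rule required groups apart in both lines and a passed test of the difference. KRT17, a basal keratin, was 7.71, 7.04 and 6.04 with siNC and 67.0, 67.1 and 78.0 FPKM with siB4GALT5 in AsPC-1. In Capan-1 it was 19.0, 19.9 and 23.7 with siNC and 7.36, 8.20 and 9.66 with siB3GNT3. Its changes were 3.18 and -1.22 (adjusted p = 6.87e-07 and 0.000335). KRT17 shares reads with near-identical copies, so its level is uncertain. LAMB3, a laminin chain of the basement membrane, moved the same way. It went from 143, 138 and 131 to 432, 467 and 413 FPKM in AsPC-1 and from 20.4, 22.7 and 23.9 to 14.8, 12 and 11.2 in Capan-1 (1.66 and -0.78). TINAGL1, a matrix protein, went from 15.6, 16.0 and 15.4 to 25.9, 25.1 and 29.2 FPKM in AsPC-1 and from 39.9, 40.1 and 43.6 to 23.0, 23.0 and 20.7 in Capan-1 (0.73 and -0.86).

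PPP1R14B, an inhibitor of protein phosphatase 1, went from 114, 130 and 127 to 240, 261 and 241 FPKM in AsPC-1 and from 215, 204 and 207 to 75.0, 65.5 and 96.4 in Capan-1 (1.00 and -1.41). YRDC, an enzyme of tRNA modification, went from 10.2, 11.8 and 11.7 to 21, 25.4 and 19.8 FPKM in AsPC-1 and from 9.87, 8.44 and 9.0 to 3.30, 3.25 and 2.37 in Capan-1 (0.91 and -1.35). Each began at a like level in the 2 lines or higher in Capan-1, and ended higher in AsPC-1. HBEGF, a ligand of the EGF receptor, rose by 0.80 in AsPC-1 and fell by 1.16 in Capan-1, although EREG, another such ligand, rose in both (1.33 and 0.93). EREG was 116, 72.1 and 45.1 FPKM in Capan-1 siB3GNT3 against 35.5, 38.9 and 38.7 with siNC, and its Capan-1 call ended without any 1 of 4 libraries (adjusted p up to 0.108). The kinesin KIF1C changed by 0.84 and -0.88 and the receptor kinase GRK6 by 0.74 and -0.80. Ligands of the NK and T cell receptor NKG2D were among them: ULBP2 went from 6.28, 6.87 and 7.79 to 12, 11.0 and 11.1 FPKM in AsPC-1 and from 9.85, 9.72 and 10.8 to 6.22, 6.46 and 7.19 in Capan-1 (0.64 and -0.55), and ULBP3 changed by 0.49 and -0.45. BTG2 and AEN, p53 targets chosen after their values were seen, changed by 1.06 and -0.61 and by 0.58 and -0.43, the Capan-1 call of AEN ending without any 1 of 4 libraries (adjusted p up to 0.124).

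**Figure D5:**
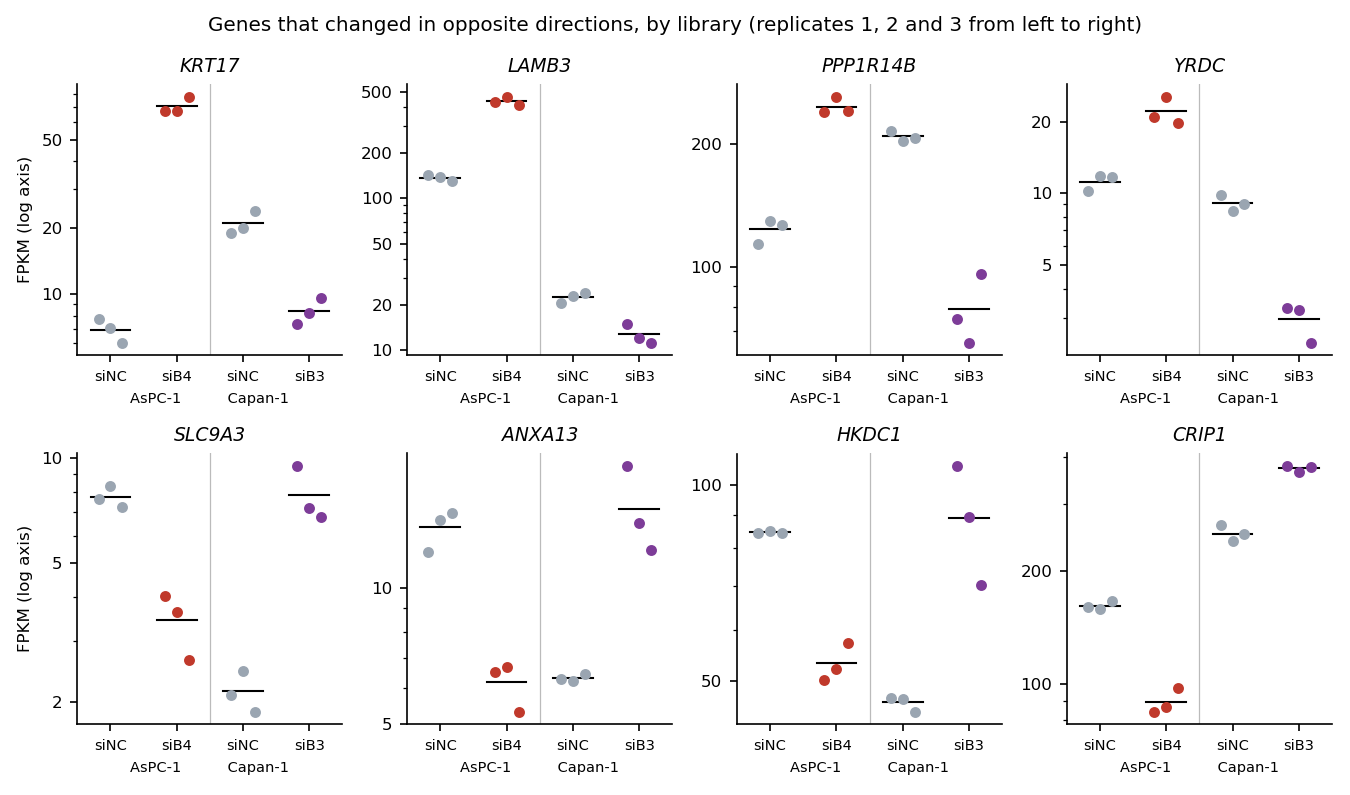
FPKM of 8 genes called in opposite directions, on log axes, with 1 point per library and a bar at the group mean (siB4, siB4GALT5 and siB3, siB3GNT3). The 4 genes of the upper row rise in AsPC-1 and fall in Capan-1, and the 4 of the lower row do the reverse. Knockdown and siNC libraries do not overlap within a line, as the rule that chose these genes required.

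The 176 genes of the reverse order fell in AsPC-1 and rose in Capan-1. SLC9A3, a sodium and proton exchanger of epithelia, went from 7.65, 8.31 and 7.24 to 4.03, 3.64 and 2.65 FPKM in AsPC-1 and from 2.10, 2.46 and 1.88 to 9.51, 7.21 and 6.79 in Capan-1 (-0.99 and 1.48). ANXA13, an annexin of intestinal epithelium, went from 12, 14.1 and 14.6 to 6.53, 6.68 and 5.32 FPKM in AsPC-1 and from 6.30, 6.21 and 6.44 to 18.6, 13.9 and 12.1 in Capan-1 (-1.02 and 1.10). Both genes had the higher level in AsPC-1 with siNC and in Capan-1 after the knockdowns. HKDC1, a hexokinase relative, changed by -0.66 and 0.91, the secreted matrix protein SPON2 by -0.73 and 0.98, the transcription factor TFAP2A by -0.65 and 0.64 and the LIM protein CRIP1 by -0.85 and 0.57. CRIP1 went from 160, 158 and 166 to 84.3, 86.8 and 97.3 FPKM in AsPC-1 and from 264, 240 and 250 to 380, 365 and 377 in Capan-1. HOXB8, a homeobox factor, changed by -0.55 and 0.58, and its AsPC-1 call ended without siNC replicate 2 (adjusted p = 0.0745) or 1 other library. Without AsPC-1 siB4GALT5 replicate 3 the AsPC-1 change of HOXB8 was -0.32. GPX4, the peroxidase that protects membrane lipids, changed by -0.36 and 0.34 and was chosen after its values were seen; its Capan-1 call ended without siNC replicate 2 (adjusted p = 0.0567).

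The enzyme families of the 2 targets were examined next. Of 12 tested members of the B4GALT and B3GNT families 1 (8.33%) rose in both, near the 10.2% of all genes, and B3GNT3 and B4GALT6 were called in opposite directions. B4GALT1, the paralogue that galactosylates glycoproteins, went from 18.9, 20.2 and 21.1 to 74.5, 73.9 and 73.7 FPKM in AsPC-1 and from 15, 15.5 and 15.2 to 29.5, 24.3 and 23.6 in Capan-1. Its rises of 1.83 and 0.72 differed (1.12, adjusted p = 9.50e-06). B4GALT6, the second lactosylceramide synthase, changed by 0.23 and -0.53, and its AsPC-1 call ended without any 1 of 4 libraries (adjusted p up to 0.141). Among O-glycan genes the initiating transferase GALNT5 fell in both (-0.38 and -0.80) and GALNT7 was called in opposite directions (-0.32 and 0.39). The mucin MUC13 changed by 0.32 and -0.57.

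Some genes changed in 1 line and by under 0.2 in the other. Their rule set that bound and also required the test of the difference to pass. In AsPC-1, EBPL, a relative of a sterol isomerase, fell from 40.4, 41.2 and 46.2 to 5.21, 4.40 and 3.36 FPKM, against 18.8, 16.1 and 17.6 and 15.3, 15 and 19.2 in Capan-1 (-3.05 and -0.08, difference -2.96, adjusted p = 2.73e-07). The Capan-1 change of EBPL was -0.19 without Capan-1 siB3GNT3 replicate 3 and then passed (adjusted p = 0.0453). LMAN2, a cargo receptor of the secretory pathway, changed by -2.47 and -0.10, and HIP1R, an endocytic adaptor, by 1.87 and 0.07. In Capan-1, the zinc transporter SLC39A1 went from 121, 117 and 122 to 28.4, 28.5 and 30.2 FPKM, against 68.2, 67.8 and 69.3 and 64.9, 62.9 and 68.6 in AsPC-1 (-2.01 and -0.06, difference 1.95, adjusted p = 5.78e-09). YBX1, an abundant RNA-binding protein, fell from 515, 497 and 504 to 144, 151 and 209 FPKM in Capan-1 (-1.60) and by 0.15 in AsPC-1 (difference 1.45, adjusted p = 1.00e-05), an AsPC-1 call that ended without any 1 of 2 libraries (adjusted p up to 0.0579). GPAT3, an enzyme of triglyceride synthesis, changed by -1.53 in Capan-1 and 0.07 in AsPC-1. PIM2, a survival kinase, rose from 6.19, 6.14 and 5.36 to 14.8, 12.9 and 14.6 FPKM in Capan-1 and changed by 0.00 in AsPC-1 (difference -1.14, adjusted p = 1.46e-05).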

How the data were processed

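RNA sequencing of 12 libraries in 4 groups of 3 was used. FPKM values for 25503 genes were deposited by the authors. Per the submitters' processing notes, Bowtie2, RSEM 1.3.1, DESeq2 1.4.5 and GRCh38 were used. Their roles and the annotation are not given in the sources used here, and reads were not analysed here, so the depth is unknown.

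Each line was fitted alone with limma 3.58.1 (R 4.3.3) with an intensity trend on log2(FPKM + 1), over the 9968 genes at or above 1 FPKM in at least 3 of 6 libraries of each line. A gene was called at a Benjamini-Hochberg adjusted p under 0.05. The difference of the 2 responses came from 1 fit of the 12 libraries. The scripts were tested on simulated data.

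The samples, members and gene lists were chosen with earlier results of these data known. Genes were named by rule: both targets, MHC class I chains, up to 15 genes per direction moving alike and 8 per order moving oppositely (the largest smaller change of the 2, groups apart, 5 FPKM), up to 4 per list called in both, and up to 4 per line and direction with under 0.2 in the other. Genes outside it are said to be chosen after their values were seen. Some genes the rule names are not reported here. Of 817 list names 815 were found, 2 of them under another symbol.

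Promoter windows and coordinates are RefSeq's (GRCh38.p14), matched by symbol. Replicate numbers were not treated as pairs in the main fit. Correlations of deviations ran from -0.04 to 0.07 for the same number and from -0.15 to 0.11 for different numbers. With 3 libraries per group they cannot exclude pairing. Alternatives changed the pseudocount, filter, scaling, trend, fit, replicate block and libraries. List counts without the libraries that stood apart or with median-ratio scaling were added after seeing the data. The AsPC-1 fit of 9 libraries adds AsPC-1 siB3GNT3, of which 1 library goes against its label.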

Additional observations from a re-analysis of the deposited data

Results flagged for a closer look

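Of the 132 genes named, 78 responded differently in the 2 lines by the test of the difference (limma, adjusted over all 9968 genes, of which 39.1% were called). Some rules that named genes required this test to pass, and other genes were chosen after their values were seen. The count of 78 can therefore not be set against that share. The values below are the AsPC-1 minus the Capan-1 change in log2(FPKM + 1), and target, siRNA and line cannot be told apart in them.

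Among genes that rose in both lines, the rise was larger in AsPC-1 for one set. The differences were 3.14 for IFI27, 2.39 for RSAD2, 1.89 for PPP1R15A, 1.60 for IFI6, 1.56 for IFIH1, 1.53 for DHX58 and 1.37 for PMAIP1. They were also 1.18 for IFIT3, 1.12 for B4GALT1, 1.09 for DUSP1, 1.07 for IFIT1, 1.06 for OAS2, 0.95 for XBP1 and 0.87 for CXCL8. The Capan-1 rise of XBP1 (0.47, adjusted p = 0.0481) ended as a call without any 1 of 5 libraries (adjusted p up to 0.131). Smaller ones were 0.75 for ATF4, 0.73 for IRF7 and 0.71 for WARS1. For another set it was larger in Capan-1. Here the differences were -1.32 for SOCS3, -1.29 for CHAC1, -0.81 for IRF1, -0.47 for CXCL2, -0.46 for SOD2 and -0.37 for NLRC5.

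Among genes that fell in both lines, some fell more in Capan-1. Their differences were 1.63 for HSPA1A, 1.61 for SLBP, 1.45 for YBX1, 0.85 for ALDH3A1, 0.66 for CCNE1, 0.50 for RBM3 and 0.33 for FEN1. Others fell more in AsPC-1. Their values were -1.15 for SCD, -0.46 for MSMO1 and -0.19 for COX3.

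Genes higher in AsPC-1 and lower in Capan-1 differ by the sum of both changes. The values were 4.40 for KRT17, 2.84 for B3GNT3, 2.44 for LAMB3, 2.41 for PPP1R14B, 2.27 for YRDC, 1.96 for HBEGF and 1.72 for KIF1C. Next came 1.68 for BTG2, 1.59 for TINAGL1, 1.54 for GRK6, 1.18 for ULBP2, 1.13 for KRT18 and 1.01 for AEN. There followed 0.94 for DNAJC3, 0.94 for ULBP3, 0.88 for MUC13, 0.76 for B4GALT6, 0.76 for TUBA1C, 0.70 for ELOVL1 and 0.66 for HYOU1. The lowest was 0.41 for FARSB. In the reverse order the values were -2.47 for SLC9A3, -2.12 for ANXA13, -1.71 for SPON2, -1.57 for HKDC1, -1.42 for CRIP1, -1.37 for ACSL4 and -1.29 for TFAP2A. Further values were -1.21 for ACSL1, -1.13 for HOXB8, -0.70 for GALNT7, -0.69 for GPX4 and -0.40 for JAK1.

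For most genes called in 1 line only, the rule that named them required the test of the difference to pass. The differences were -2.96 for EBPL, 2.44 for CCL5, -2.37 for LMAN2, 2.28 for OASL, 1.95 for SLC39A1, -1.85 for B4GALT5 and 1.80 for HIP1R. Among the others they were 1.60 for GPAT3, -1.36 for ELOVL6, -1.14 for PIM2, -1.01 for PSAT1 and 0.44 for HLA-E.

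The 3 AsPC-1 siB3GNT3 libraries, which the comparisons leave out, had values above siNC in 2 of the 3. SESN2 was 33.1, 34.1 and 7.29 FPKM there, against 6.74 to 8.04 with siNC. DDIT3 was 117, 112 and 14.8, against 15 to 17.8, and IFIT1 was 34.9, 32.1 and 8.53, against 7.70 to 8.39. Replicate 3 goes against its label: B3GNT3 was 24.2 FPKM in it, 2.53 and 2.50 in replicates 1 and 2, and 22.5 to 23.8 with siNC.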

How the results depend on the processing

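No called value of a gene named, nor the correlation, changed sign under the alternatives run, but median-ratio scaling turned the balance of higher and lower calls from 1012 and 534 to 760 and 835 in both lines, from 3442 and 2247 to 2800 and 2881 in AsPC-1, and from 1748 and 1536 to 1422 and 1952 in Capan-1. Requiring a change of at least 2-fold left 393 genes changed in AsPC-1, 164 in Capan-1, 37 higher in both, 0 lower in both, 4 in opposite directions and 436 whose responses differed. A filter of 5 FPKM gave 664 genes higher in both, with fewer genes tested (6409). With no filter on low values 350 were lower in both and 328 opposite, over 19421 genes. Median-ratio scaling gave 835 lower in both, and the AsPC-1 fit of 9 libraries gave 347. That fit adds 1 library that goes against its label, and the cause of its lower count was not tested. Leaving out 1 library at a time gave 4638 to 6442 genes changed in AsPC-1, 1726 to 5180 in Capan-1, 570 to 1402 higher in both, 290 to 874 lower in both, 252 to 884 opposite and 3268 to 4610 with differing responses, with r from 0.31 to 0.36. The highest values for Capan-1 and for both lines together came without Capan-1 siB3GNT3 replicate 3, and the highest for AsPC-1 without siB4GALT5 replicate 3. With the replicate number as a block there were 5513 and 2829 genes changed, 888 higher in both, 455 lower in both, 411 opposite and 3620 differing, with r of 0.35. Of 252 called values of the 132 genes named, 40 lost their call in at least 1 of 22 settings. Median-ratio scaling ended the AsPC-1 calls of DNAJC3 (adjusted p = 0.0841), B4GALT6 (0.121) and FARSB (0.146) and the Capan-1 calls of XBP1 (0.0682) and JAK1 (0.0828). Rescaling to a common sum ended the AsPC-1 calls of JAK1 (adjusted p = 0.208) and YBX1 (0.228) and the Capan-1 calls of AEN (0.0669) and FARSB (0.0567). The number of reads is unknown, so no counting interval can be given.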
